A study of Mus musculus with 18 samples.

Results

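Extracellular matrix proteases of the MMP, ADAM and ADAMTS families and their TIMP inhibitors were followed in GL261 glioma cells and in the tumours these cells formed in mice. The members were all protein-coding genes of the table with the symbol Mmp, Adam or Adamts followed by a number, Mmp1b, and Timp1 to Timp4. They were 72 of 48795 genes, made up of 22 Mmp, 27 Adam, 19 Adamts and 4 Timp genes. Mmp1a also matched, but GENCODE M21 lists it as a polymorphic pseudogene, and it was left out. A read was found for 66 members in at least 1 library, and the 6 with none (Adam20, Adam24, Adam25, Adam29, Adam34 and Adam39) are ADAM genes of the testis. In 3 or more of the 18 libraries 53 members reached a normalized count of 10, and these were 18 Mmp, 16 Adam, 15 Adamts and 4 Timp genes.

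The RNA came from GL261 GFP, 1 mouse glioma line that carries green fluorescent protein, and the 6 groups held 3 libraries each. GFP- cells were sorted from tumours in C57BL/6 wild-type (WT) mice and hold the non-tumour cells. GFP+ tumour cells were sorted from tumours in Pfp/Rag2-/- mice and in WT mice, and unsorted cells were taken from tumours of both hosts. The cultured GL261 GFP cells, from the stock used for the injections, were sorted as GFP+ as well. Pfp/Rag2-/- mice lack perforin, with which killer lymphocytes pierce their targets, and they lack Rag2, without which T and B cells do not mature. They still form natural killer cells, and no GFP- library of this host was analysed here. Tumours were taken from symptomatic mice and digested with collagenase. The labels name 6 mice per host and do not say whether a library was 1 mouse or a pool, so each p-value rests on the spread between libraries, which may be in part technical.

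The libraries held 19172814 to 21141662 reads assigned to genes. The non-tumour label of the GFP- libraries fitted their markers: the summed level of 10 macrophage and microglia markers there was 236110.0 to 280710.0. It was 0.472% to 2.18% of its GFP- mean in Pfp/Rag2-/- GFP+ libraries, against 0.74% to 2.35% in WT GFP+ libraries, and 6 of the 10 markers were at 0 in each cultured library, Itgam, Tyrobp, Aif1 and C1qb in all of them. In both hosts the GFP+ library numbered 1 held the most macrophage, neutrophil, T cell and natural killer cell RNA. The natural killer markers of Pfp/Rag2-/- GFP+ library 1 reached 12% of the GFP- mean, against 0.41% and 0.222% in the other two. GFP- library 3 stood apart in the other direction, with 7 summed pericyte and fibroblast markers at 203% of the group mean. WT unsorted library 1 stood apart from its group in several members named below. Values that rest on these libraries are given beside the results. The strand setting of the counting is not given, and Mmp12, Mmp28, Adam8, Adam15, Adam17, Adamts4 and Adamts7, like the members named with such an overlap below, share exonic bases with a gene on the other strand that had reads.

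MMPs are zinc proteases that cut collagens, elastin, proteoglycans and other matrix proteins, and most are secreted as inactive precursors. ADAMs are membrane proteins, and the active ones release growth factors, cytokines and receptors from the cell surface. ADAMTS proteases are secreted, and several cut the lecticans, the large hyaluronan-binding proteoglycans of brain matrix. TIMPs bind the active site of these proteases, and the TIMP family differs in reach, with Timp3 the one that also blocks several ADAM and ADAMTS proteases. In glioma these enzymes have been studied for invasion through brain matrix and for their release by microglia and macrophages.

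A group of 9 Mmp genes lies side by side on mouse chromosome 9 (GRCm38), in the order Mmp13, Mmp12, Mmp1b, Mmp3, Mmp10, Mmp8, Mmp27, Mmp20 and Mmp7, from base 7272514 to base 7699585, with Mmp1b alone on the minus strand. Mmp13 and Mmp8 encode collagenases, Mmp1b a relative of interstitial collagenase, Mmp3 and Mmp10 stromelysins, Mmp12 the macrophage elastase, Mmp7 matrilysin and Mmp20 the enamel protease. The results below turn on Mmp13, Mmp12, Mmp3 and Mmp10, and Mmp27 is a neighbour that was higher in GFP- cells than in WT GFP+ cells. Their promoter windows from RefSeq (GRCm38.p6, plus strand, 250 bases before to 50 after the annotated start) are shown for that reason. They lie at chr9:7272264-7272563 for Mmp13, chr9:7347124-7347423 for Mmp12 (the more downstream of its annotated starts), chr9:7445572-7445871 for Mmp3, chr9:7502092-7502391 for Mmp10 and chr9:7571146-7571445 for Mmp27. Capitals mark the AP-1 motif TGANTCA and the TATA motif TATAAA, searched on both strands.
Mmp13: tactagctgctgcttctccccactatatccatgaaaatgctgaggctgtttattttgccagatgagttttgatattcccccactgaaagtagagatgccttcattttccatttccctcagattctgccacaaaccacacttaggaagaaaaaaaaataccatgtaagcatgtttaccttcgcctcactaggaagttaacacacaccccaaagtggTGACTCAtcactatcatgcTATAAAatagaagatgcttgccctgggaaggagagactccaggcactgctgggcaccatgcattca
Mmp12: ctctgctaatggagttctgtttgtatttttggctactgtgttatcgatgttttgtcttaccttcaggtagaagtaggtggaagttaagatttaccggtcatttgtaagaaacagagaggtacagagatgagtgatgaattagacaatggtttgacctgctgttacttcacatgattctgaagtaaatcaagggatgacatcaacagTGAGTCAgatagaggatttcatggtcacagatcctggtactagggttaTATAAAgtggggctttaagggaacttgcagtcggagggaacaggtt
Mmp3: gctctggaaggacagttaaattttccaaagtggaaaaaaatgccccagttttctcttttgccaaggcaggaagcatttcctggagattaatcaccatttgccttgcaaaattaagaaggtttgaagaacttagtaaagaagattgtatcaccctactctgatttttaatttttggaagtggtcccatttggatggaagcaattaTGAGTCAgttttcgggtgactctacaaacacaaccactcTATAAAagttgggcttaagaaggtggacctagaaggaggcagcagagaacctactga
Mmp10: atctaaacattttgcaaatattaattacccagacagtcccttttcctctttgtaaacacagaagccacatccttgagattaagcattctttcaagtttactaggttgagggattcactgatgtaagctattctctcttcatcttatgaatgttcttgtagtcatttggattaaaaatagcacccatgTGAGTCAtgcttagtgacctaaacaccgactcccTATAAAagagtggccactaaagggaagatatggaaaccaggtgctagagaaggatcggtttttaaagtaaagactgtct
Mmp27: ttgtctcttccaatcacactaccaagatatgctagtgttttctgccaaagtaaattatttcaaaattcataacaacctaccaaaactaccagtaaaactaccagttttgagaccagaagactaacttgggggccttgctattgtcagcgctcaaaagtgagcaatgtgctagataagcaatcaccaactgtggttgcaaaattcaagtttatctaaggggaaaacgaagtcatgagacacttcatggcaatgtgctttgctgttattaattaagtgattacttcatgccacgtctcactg
The AP-1 motif starts 35 bases before the annotated start of Mmp13, 44 before that of Mmp12, 46 before that of Mmp3 and 63 before that of Mmp10, and neither motif is in the Mmp27 window. Windows were found for 43 of the 72 members. TGANTCA was in a window of 7 of the 9 genes of this group and of 11 of the 43 members, against 8.98% of 26994 genes. TATAAA was in 8 of the 9, against 15.7% of all genes. The STAT-type motif TTCNNNGAA was in 2 of the 43 members, against 9.55% of all genes. Such matches describe letters in a window and are no evidence of binding.

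Levels between genes are compared as normalized counts per kilobase of exon. MMP genes together summed to 12365 ± 3150.4 per kilobase in GFP- cells (mean ± SD, n = 3, as throughout), 3730.0 ± 265 in GFP+ cells of Pfp/Rag2-/- hosts, 3093 ± 217 in GFP+ cells of WT hosts and 9385 ± 186 in cultured cells. Which gene led the sum differed between these populations. Mmp13, a collagenase, made up 45.9% of the MMP sum in GFP- cells. Mmp15, a transmembrane MMP, made up 49% in Pfp/Rag2-/- GFP+ cells and 37% in WT GFP+ cells. Mmp2, a gelatinase that cuts basement membrane collagen, made up 61.0% in culture. Among ADAMs, Adam8 led in GFP- cells with 45.7% of the sum, and Adam9, a widely expressed sheddase, led in the other groups with 36.4% to 47.9%. Adamts1, which cuts aggrecan and versican, led its family in every group and reached 78.5% of it in WT GFP+ cells. Among inhibitors, Timp2 made up 85.0% of the sum in GFP- cells. Timp1 made up 80.9% in Pfp/Rag2-/- GFP+ cells and 80.1% in WT GFP+ cells, and Timp3 led in culture with 35%.

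**Figure D1:**
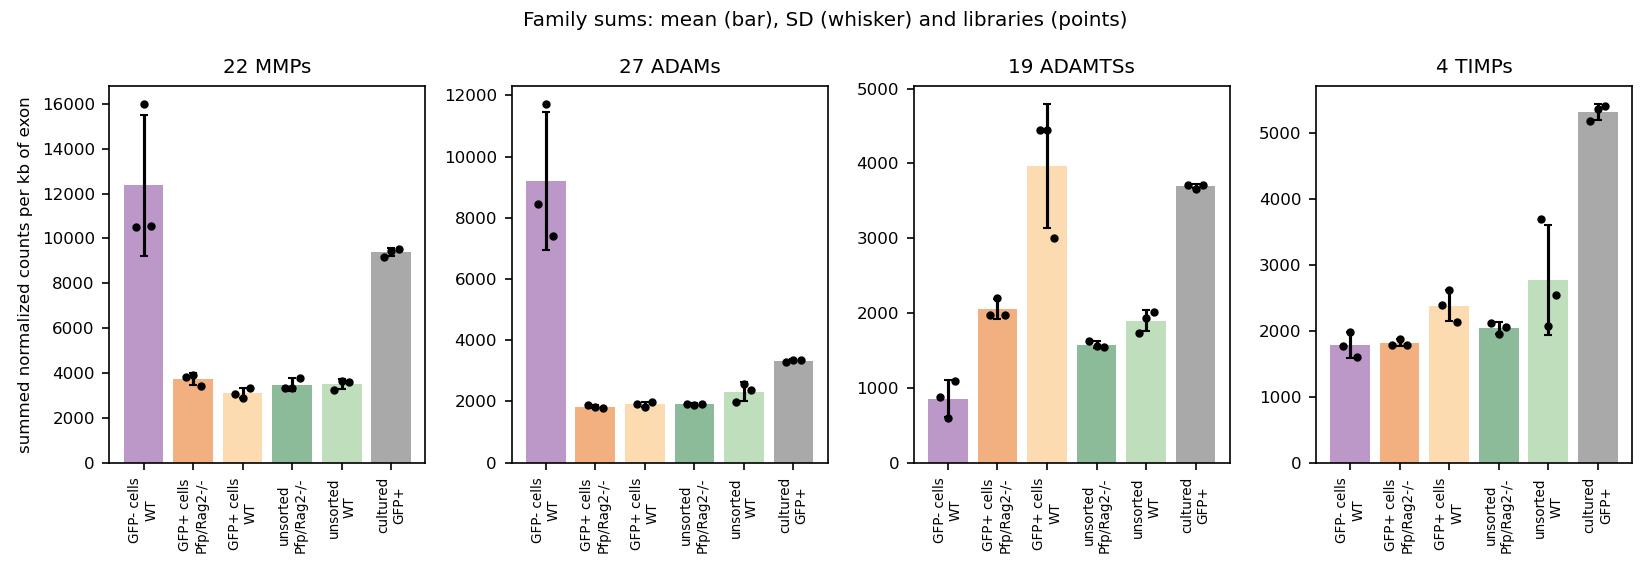
Sum of the normalized counts per kilobase of exon over the members of each family (y axis) in 6 groups (x axis), with bars for the mean of 3 libraries, whiskers for the SD and points for the libraries. The MMP and ADAM sums were highest in GFP- cells (12365 and 9193 on average), the ADAMTS sum was lowest there (854), and the TIMP sum was highest in culture (5325).

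**Figure D2:**
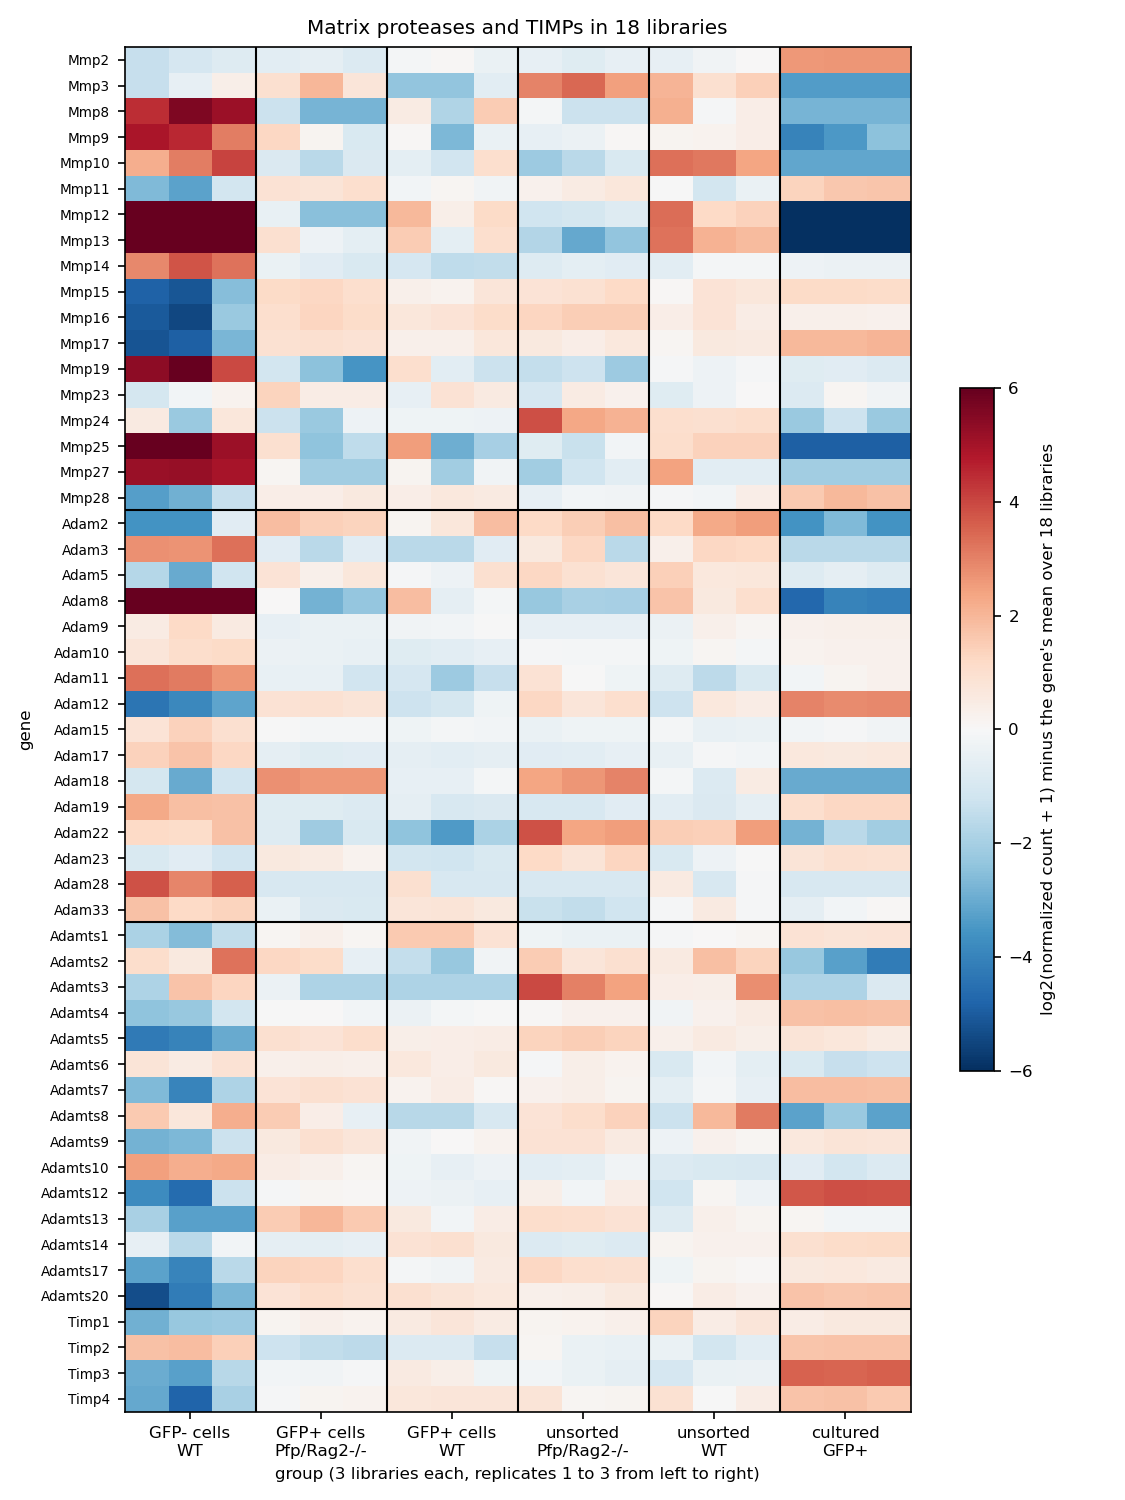
Log2(normalized count + 1) of 53 members (rows, by family) in 18 libraries (columns, 3 per group), minus the mean of the gene over all libraries; the colour scale ends 6 log2 units either side of the mean and larger values share its end colours. Mmp8, Mmp9, Mmp12, Mmp13, Mmp14, Mmp19, Mmp25, Mmp27 and Adam8 stood highest in the 3 GFP- libraries, and GFP- library 3 was the nearest of these to the tumour cells for Mmp15, Mmp16 and Mmp17.

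GFP+ tumour cells grown in Pfp/Rag2-/- hosts held more Adam12, Adam18, Adam23, Mmp3, Mmp11, Mmp14 and Mmp15 RNA, and less Mmp12, Adam33, Adamts1, Adamts14, Timp1, Timp4 and Mmp2 RNA, than GFP+ cells grown in WT hosts. This comparison asks how tumour cells differ after growth in hosts with and without perforin and mature T and B cells. The loss of perforin and that of Rag2 cannot be told apart in it. Of the 43 members tested with limma, 23 (53.5%) passed an adjusted p of 0.05, against 30.4% of all 14807 genes tested. They split into 15 higher (15% of all genes) and 8 lower (15.3% of all genes), and the median log2 difference was 0.26, beside 0.02 over all genes. In 26 of the 43 the groups did not overlap, against 48.7% of all genes. Without each single library in turn 17 of the 23 calls held, and Mmp2, Mmp12, Mmp14, Adamts12, Adamts13 and Adamts17 did not. With all 18 libraries in 1 fit 11 calls were lost (Timp1, Timp4, Mmp11, Mmp15, Mmp17, Adam9, Adamts5, Adamts7, Adamts9, Adamts12 and Adamts17), and without both GFP+ libraries numbered 1 there were 7 lost, Timp1, Mmp2, Mmp3, Mmp15, Mmp17, Adamts12 and Adamts17.

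Marker lists of other cell types also differed between these hosts. The 7 pericyte and fibroblast markers summed to 17509 to 20376 in Pfp/Rag2-/- GFP+ libraries, against 8596 to 10194 in WT GFP+ libraries, and none of them was at 0 in a tumour library. In culture they summed to 4784 to 5111, with Rgs5, Dcn and Lum at 0 in at least 1 library. The median marker of this list differed more than the sum. It stood at 364%, 207% and 90.2% of its GFP- mean in Pfp/Rag2-/- GFP+ libraries, against 9.16%, 8.97% and 23.2% in WT GFP+ libraries. In culture it stood at 4.55%, 0.574% and 3.04%. The 5 oligodendrocyte markers stood at 119% to 137% of the GFP- mean in Pfp/Rag2-/- GFP+ libraries, against 57.6% to 114% in WT GFP+ libraries. In culture they stood at 485% to 516%, above every other group, so this list does not mark other cells alone. Neuron and astrocyte lists overlapped between hosts. Mmp2, Mmp11, Mmp14 and Adam12 are also genes of fibroblasts, and the part of such cells in their differences was not tested.

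Both TIMPs that passed were lower in Pfp/Rag2-/- hosts. Timp1, a broad secreted inhibitor, had 1263, 1371 and 1289 normalized counts in Pfp/Rag2-/- GFP+ cells, against 1650.1, 1864 and 1577 in WT GFP+ cells. The groups did not overlap (log2 difference -0.37, SE 0.07, adjusted p = 0.0108). Timp4 had 147, 175 and 181 in Pfp/Rag2-/- GFP+ cells, against 249, 257 and 259.7 in WT GFP+ cells, again without overlap (log2 difference -0.61, SE 0.11, adjusted p = 0.00908). Timp4 lies within Syn2 on the other strand and shares 90 exonic bases with it, the counting strand is not stated, and Syn2 averaged 22.6 in Pfp/Rag2-/- GFP+ cells and 63.4 in WT GFP+ cells. Timp2, which also helps Mmp14 to activate Mmp2, averaged 684 ± 80.1 in Pfp/Rag2-/- GFP+ cells and 935 ± 194 in WT GFP+ cells (log2 difference -0.43, SE 0.17, adjusted p = 0.0877). With the replicate number as a block the adjusted p of Timp2 was 0.0201. Timp3, which binds to the matrix, averaged 1164 ± 56.8 in Pfp/Rag2-/- GFP+ cells and 1551 ± 413 in WT GFP+ cells and did not pass (log2 difference -0.38, SE 0.19, adjusted p = 0.17).

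Of the membrane-type MMPs, which act at the cell surface, Mmp14 to Mmp17 were tested and 3 of these 4 rose, against 15% of all genes. Mmp15 had 9967, 10602 and 9020.3 in Pfp/Rag2-/- GFP+ cells, against 5624, 5273 and 7615 in WT GFP+ cells, with no overlap (log2 difference 0.69, SE 0.14, adjusted p = 0.0114). Mmp14, which activates Mmp2 and cuts collagen, had 1022, 852 and 731 in Pfp/Rag2-/- GFP+ cells, against 671, 467 and 485 in WT GFP+ cells. All Pfp/Rag2-/- values lay above all WT values (log2 difference 0.69, SE 0.17, adjusted p = 0.0239), and the call was lost without Pfp/Rag2-/- library 1 or 2, or WT library 2 or 3. Mmp14 was also high in GFP- cells, and its GFP+ level was 7.3%, 6.09% and 5.23% of the GFP- mean in the Pfp/Rag2-/- libraries and 4.8%, 3.34% and 3.47% in the WT libraries. The macrophage markers stood at 2.18%, 0.478% and 0.472% in the same Pfp/Rag2-/- libraries and 2.35%, 0.74% and 1.56% in the WT ones. The part of macrophage RNA in the Mmp14 difference was not tested. Mmp17, held by a lipid anchor, averaged 3570.2 ± 79.9 in Pfp/Rag2-/- GFP+ cells and 2571 ± 362 in WT GFP+ cells (log2 difference 0.48, SE 0.10, adjusted p = 0.0105). Mmp16 averaged 2948 ± 297 and 2479 ± 395 in the same order and did not pass (adjusted p = 0.152).

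The soluble MMPs moved in both directions. Mmp11, a stromelysin activated inside the cell, had 250.2, 231 and 274 in Pfp/Rag2-/- GFP+ cells, against 123, 147 and 115 in WT GFP+ cells, with no overlap (log2 difference 0.97, SE 0.13, adjusted p = 0.00299). It shares 155 exonic bases with Chchd10 on the other strand, which averaged 880 in Pfp/Rag2-/- GFP+ cells and 347 in WT GFP+ cells. Mmp3, a stromelysin that activates other pro-MMPs, was low in both, with 19.2, 39.5 and 15.7 in Pfp/Rag2-/- GFP+ cells, against 0.958, 0.95 and 5.53 in WT GFP+ cells (log2 difference 3.03, SE 0.61, adjusted p = 0.0114). Mmp2 had 2036, 2176 and 1784 in Pfp/Rag2-/- GFP+ cells, against 2866, 3295 and 2399.8 in WT GFP+ cells, and the groups did not overlap (log2 difference -0.51, SE 0.12, adjusted p = 0.0229). Its call was lost without Pfp/Rag2-/- library 3 or without WT library 1 or 2. Mmp9, the other gelatinase, had 74, 34 and 15.7 in Pfp/Rag2-/- GFP+ cells, against 31.6, 3.8 and 23 in WT GFP+ cells, and did not pass (adjusted p = 0.318). Its highest value was in Pfp/Rag2-/- library 1, where the neutrophil markers stood at 3.7% of the GFP- mean, against 0.517% and 0.259% in libraries 2 and 3.

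Mmp12, the elastase of macrophages, had 80.4, 18.4 and 18.4 in Pfp/Rag2-/- GFP+ cells, against 419, 139 and 240.4 in WT GFP+ cells. Each Pfp/Rag2-/- value was below each WT value (log2 difference -2.95, SE 0.64, adjusted p = 0.0146). The call was lost without Pfp/Rag2-/- library 2 (adjusted p = 0.0574) or 3 (0.0567) and held without both libraries numbered 1 (log2 difference -3.24, adjusted p = 0.00209). Macrophage markers were lower in Pfp/Rag2-/- libraries 2 and 3 than in WT libraries 2 and 3. The libraries numbered 1 held 2.18% (Pfp/Rag2-/-) and 2.35% (WT) of the GFP- mean, and 80.4 and 419 counts of Mmp12. The part of macrophage RNA in the Mmp12 difference was not tested. Mmp19 and Adam8, which were also high in GFP- cells, differed by -2.06 and -2.12 on the log2 scale and did not pass (adjusted p = 0.0807 and 0.11). Both passed with the replicate block (adjusted p = 0.00182 for Mmp19 and 0.00061 for Adam8). Mmp13 had 331, 141 and 116 in Pfp/Rag2-/- GFP+ cells, against 492, 113 and 349 in WT GFP+ cells, which overlapped (adjusted p = 0.474).

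Of the 13 ADAMs tested 3 rose and 2 fell, together 38.5%, near the 30.4% of all genes. Adam12, an active sheddase known from muscle and fat precursors, had 892, 916 and 821 in Pfp/Rag2-/- GFP+ cells, against 202, 234 and 399.7 in WT GFP+ cells. The lowest Pfp/Rag2-/- value was above the highest WT value (log2 difference 1.71, SE 0.24, adjusted p = 0.00289). Adam23, a neural ADAM without protease activity that binds LGI proteins, had 479, 446 and 367 in Pfp/Rag2-/- GFP+ cells, against 147, 139 and 166 in WT GFP+ cells (log2 difference 1.51, SE 0.13, adjusted p = 0.000505). Adam18, a gene known from sperm, had 53, 48.7 and 48.8 in Pfp/Rag2-/- GFP+ cells, against 4.79, 4.75 and 6.45 in WT GFP+ cells, where only a few reads were found (log2 difference 3.02, SE 0.26, adjusted p = 0.000477). The hosts did not overlap for any of these genes. Adam33 had 37.4, 26.6 and 25.8 in Pfp/Rag2-/- GFP+ cells, against 83.3, 85.5 and 73.7 in WT GFP+ cells, and lay lower without overlap (log2 difference -1.42, SE 0.21, adjusted p = 0.00394). Adam9 averaged 3065 ± 88.8 in Pfp/Rag2-/- GFP+ cells and 3769.6 ± 249 in WT GFP+ cells (log2 difference -0.30, SE 0.06, adjusted p = 0.0112). The principal sheddases Adam10 and Adam17 did not pass, with Adam10 at 1944 ± 60.2 in Pfp/Rag2-/- GFP+ cells and 1689 ± 155 in WT GFP+ cells (adjusted p = 0.0721). Adam17 stood at 1509.7 ± 100.4 in Pfp/Rag2-/- GFP+ cells and 1605 ± 58.1 in WT GFP+ cells (adjusted p = 0.32).

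ADAMTS genes passed in 9 of 13 cases (69.2%), against 30.4% of all genes. They split into 7 higher and 2 lower, against 15% and 15.3% of all genes. Adamts1 had 6837, 7889.8 and 6913 in Pfp/Rag2-/- GFP+ cells, against 19007, 18805 and 11727 in WT GFP+ cells, so that all WT values lay above all Pfp/Rag2-/- values (log2 difference -1.16, SE 0.19, adjusted p = 0.0049). Adamts14, which trims the ends of procollagen, had 946, 917 and 983 in Pfp/Rag2-/- GFP+ cells, against 2533, 2663 and 2044 in WT GFP+ cells (log2 difference -1.34, SE 0.10, adjusted p = 0.000296). The spread of this gene within each host was small beside the difference. Adamts9 averaged 1246 ± 164 in Pfp/Rag2-/- GFP+ cells and 744 ± 114 in WT GFP+ cells (log2 difference 0.75, SE 0.14, adjusted p = 0.00783), and the aggrecanase Adamts5 averaged 359 ± 29.2 and 243 ± 7.91 in the same order (log2 difference 0.56, SE 0.09, adjusted p = 0.00596). Adamts17 averaged 148 ± 18.9 in Pfp/Rag2-/- GFP+ cells and 68.2 ± 21.6 in WT GFP+ cells (log2 difference 1.14, SE 0.24, adjusted p = 0.0129). Adamts7, Adamts10 and Adamts13, the protease of von Willebrand factor, also rose, by 0.65 to 1.4 on the log2 scale. Adamts12 was the call nearest the threshold (log2 difference 0.43, adjusted p = 0.047, and 0.0831 with the replicate block), and it was lost without any single library. Adamts4 and Adamts20, which also cut lecticans, did not pass.

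Of 14 regulators of these proteases tested 5 were higher and 3 lower in Pfp/Rag2-/- GFP+ cells, against 15% and 15.3% of all genes. Of 7 lecticans and link proteins 2 rose and none fell, and of 5 shed ligands 1 rose and 1 fell, beside the same shares over all genes. Reck, a membrane-anchored inhibitor of MMPs, averaged 176 in Pfp/Rag2-/- GFP+ cells and 96.7 in WT GFP+ cells (log2 difference 0.86, SE 0.12, adjusted p = 0.00284). Spock2, a proteoglycan of the testican family, averaged 326 and 124 in the same order (log2 difference 1.37, SE 0.19, adjusted p = 0.00316). Tspan5, a tetraspanin that guides Adam10 to the cell surface, averaged 631 in Pfp/Rag2-/- GFP+ cells and 300.2 in WT GFP+ cells (log2 difference 1.08, SE 0.11, adjusted p = 0.000859). Bcan, the brain lectican brevican, averaged 8353 in Pfp/Rag2-/- GFP+ cells and 3076 in WT GFP+ cells (log2 difference 1.46, SE 0.16, adjusted p = 0.00105). Hbegf, a growth factor released by ADAMs, was the 1 of 5 shed ligands that fell (log2 difference -0.95, SE 0.29, adjusted p = 0.0468), and Tgfa was the 1 that rose (log2 difference 0.19, SE 0.05, adjusted p = 0.0227). The median log2 differences were 0.18 for regulators, 0.40 for lecticans and link proteins, -0.05 for shed ligands and 0.41 for 4 ADAMTS-like genes, none of which passed, beside 0.02 over all genes.

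**Figure D3:**
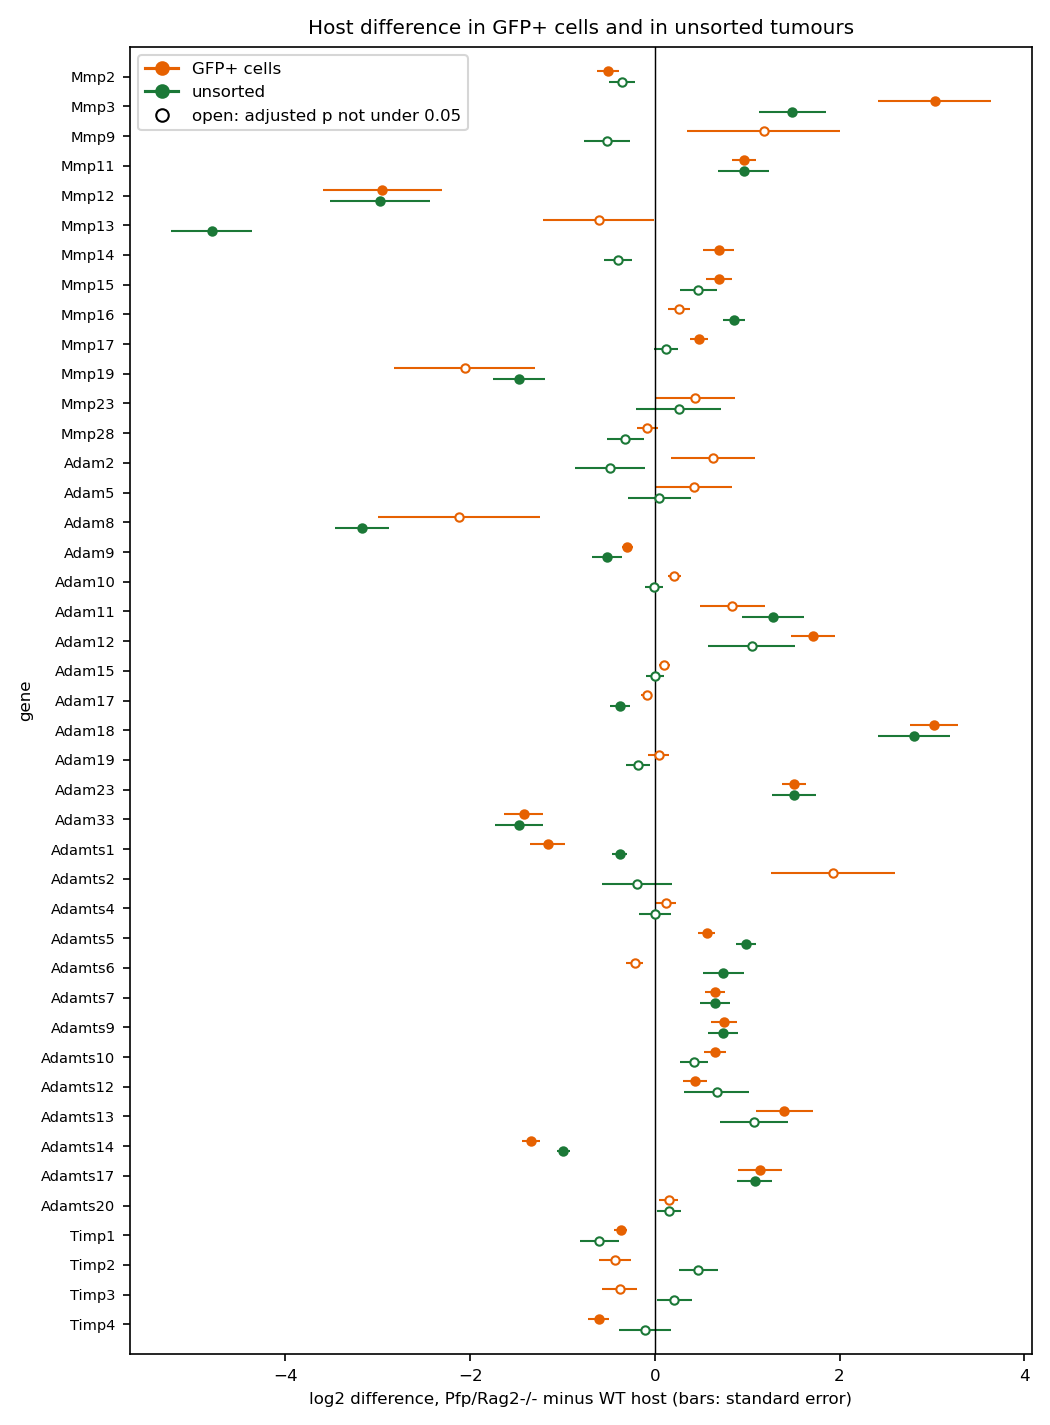
Log2 difference between Pfp/Rag2-/- and WT hosts (x axis) for the 43 members tested in both sorted GFP+ cells (orange) and unsorted tumours (green), with bars for the standard error and filled points for an adjusted p under 0.05. Mmp13 lay at -0.61 in GFP+ cells and at -4.80 in unsorted tumours, whereas Adam23 lay at 1.51 in both.

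Unsorted tumours of Pfp/Rag2-/- hosts held far less Mmp13, Mmp10, Adam8, Mmp12 and Mmp25 RNA than unsorted WT tumours, and more Adam18, Adam23, Mmp3, Adamts5 and Mmp16 RNA. Of 49 members tested 23 (46.9%) passed, against 29.9% of all 15448 genes. They split into 12 higher (14.8% of all genes) and 11 lower (15.1% of all genes), with a median log2 difference of 0.05, the same as over all genes to the second decimal. In 30 of the 49 the hosts did not overlap, against 48.4% of all genes. In such bulk samples fewer cells of a type and less RNA per cell cannot be told apart. Without each single library in turn 13 of the 23 calls held, and Adam9, Adam11, Adam17, Adamts1, Adamts6, Adamts7, Adamts9, Mmp3, Mmp11 and Mmp24 did not. With all 18 libraries in 1 fit 10 of the 23 calls were lost, those of Mmp3, Mmp11, Mmp16, Mmp19, Mmp24, Mmp25, Adamts1, Adamts7, Adamts9 and Adamts17. Leaving out WT library 1 ended 1 call, and leaving out Pfp/Rag2-/- library 2 ended 10.

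Cell type markers moved with the host here. The macrophage markers stood at 2.45%, 1.97% and 2.02% of the GFP- mean in Pfp/Rag2-/- tumours and 6.46%, 6.14% and 6.91% in WT tumours. The T cell markers stood at 0.706%, 0.34% and 0.478% in Pfp/Rag2-/- tumours and 1.97%, 2.83% and 4.62% in WT tumours, and the neutrophil markers stood at 1.78%, 1.39% and 1.17% and 4.12%, 3.4% and 4.12% in the same order. The natural killer markers stood at 0.891%, 0.606% and 0.921% in Pfp/Rag2-/- tumours and 3.02%, 2.89% and 4.26% in WT tumours. The pericyte and fibroblast markers went the other way, at 637%, 486% and 502% in Pfp/Rag2-/- tumours and 338%, 317% and 314% in WT tumours, as did the oligodendrocyte markers, at 241%, 190% and 162% in Pfp/Rag2-/- tumours and 107%, 96% and 142% in WT tumours. None of these lists overlapped between hosts. In cultured GL261 cells the pericyte and fibroblast markers stood at 201% to 215% and the oligodendrocyte markers at 485% to 516%, so neither sum marks other cells alone. The median pericyte and fibroblast marker stood at only 4.55%, 0.574% and 3.04% in culture. In unsorted tumours it stood at 200%, 168% and 181% in Pfp/Rag2-/- hosts and 38.2%, 102% and 125% in WT hosts. The part of the lists in the differences below was not tested.

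Mmp13 had 50.6, 19.9 and 32.5 normalized counts in Pfp/Rag2-/- tumours, against 1662, 729.6 and 641 in WT tumours. The highest Pfp/Rag2-/- value was below the lowest WT value (log2 difference -4.80, SE 0.44, adjusted p = 0.000512). Mmp12 had 46.2, 51.6 and 63.1 in Pfp/Rag2-/- tumours, against 1105, 246 and 283 in WT tumours, again with no overlap (log2 difference -2.98, SE 0.54, adjusted p = 0.0068). WT library 1 held the highest Mmp12 and Mmp13 values, and without it the log2 difference of Mmp12 was -2.29 (adjusted p = 0.000471). Mmp10, a stromelysin, had 0.888, 1.81 and 3.61 in Pfp/Rag2-/- tumours, against 83, 75.6 and 42.7 in WT tumours (log2 difference -4.50, SE 0.44, adjusted p = 0.00067), and the Pfp/Rag2-/- values rest on 1, 2 and 4 reads. Adam8, an ADAM of leukocytes, had 40.9, 50.7 and 49.6 in Pfp/Rag2-/- tumours, against 661, 299.6 and 401 in WT tumours (log2 difference -3.17, SE 0.29, adjusted p = 0.000489). In both the hosts were far apart. Mmp25, the lipid-anchored MMP of leukocytes, averaged 17.7 ± 7.22 in Pfp/Rag2-/- tumours and 70.4 ± 9.06 in WT tumours (log2 difference -2.0, SE 0.33, adjusted p = 0.00478), and Mmp19 averaged 38.9 ± 12.3 and 106 ± 10.4 in the same order (log2 difference -1.47, SE 0.28, adjusted p = 0.00801). Mmp19 shares 789 exonic bases with Tmem198b on the other strand, which averaged 373 in Pfp/Rag2-/- tumours and 473 in WT tumours.

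These genes did not keep one ratio to the immune markers. As a share of the GFP- mean, Mmp13 stood at 0.334%, 0.132% and 0.214% in Pfp/Rag2-/- tumours and 11%, 4.81% and 4.23% in WT tumours. Adam8 stood at 0.21%, 0.26% and 0.255% in Pfp/Rag2-/- tumours and 3.39%, 1.54% and 2.06% in WT tumours. The Adam8 share lay below the macrophage share of the same library in all 6 tumours, and the Mmp13 share in all but WT library 1. Mmp10 lay at the other end, with 1.07%, 2.18% and 4.33% in Pfp/Rag2-/- tumours and 99.7%, 90.8% and 51.2% in WT tumours, where the macrophage share was under 7%. Mmp14 stood at 5.69%, 6.4% and 6% in Pfp/Rag2-/- tumours and 6.24%, 8.94% and 8.99% in WT tumours and did not pass between hosts (adjusted p = 0.0833).

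**Figure D4:**
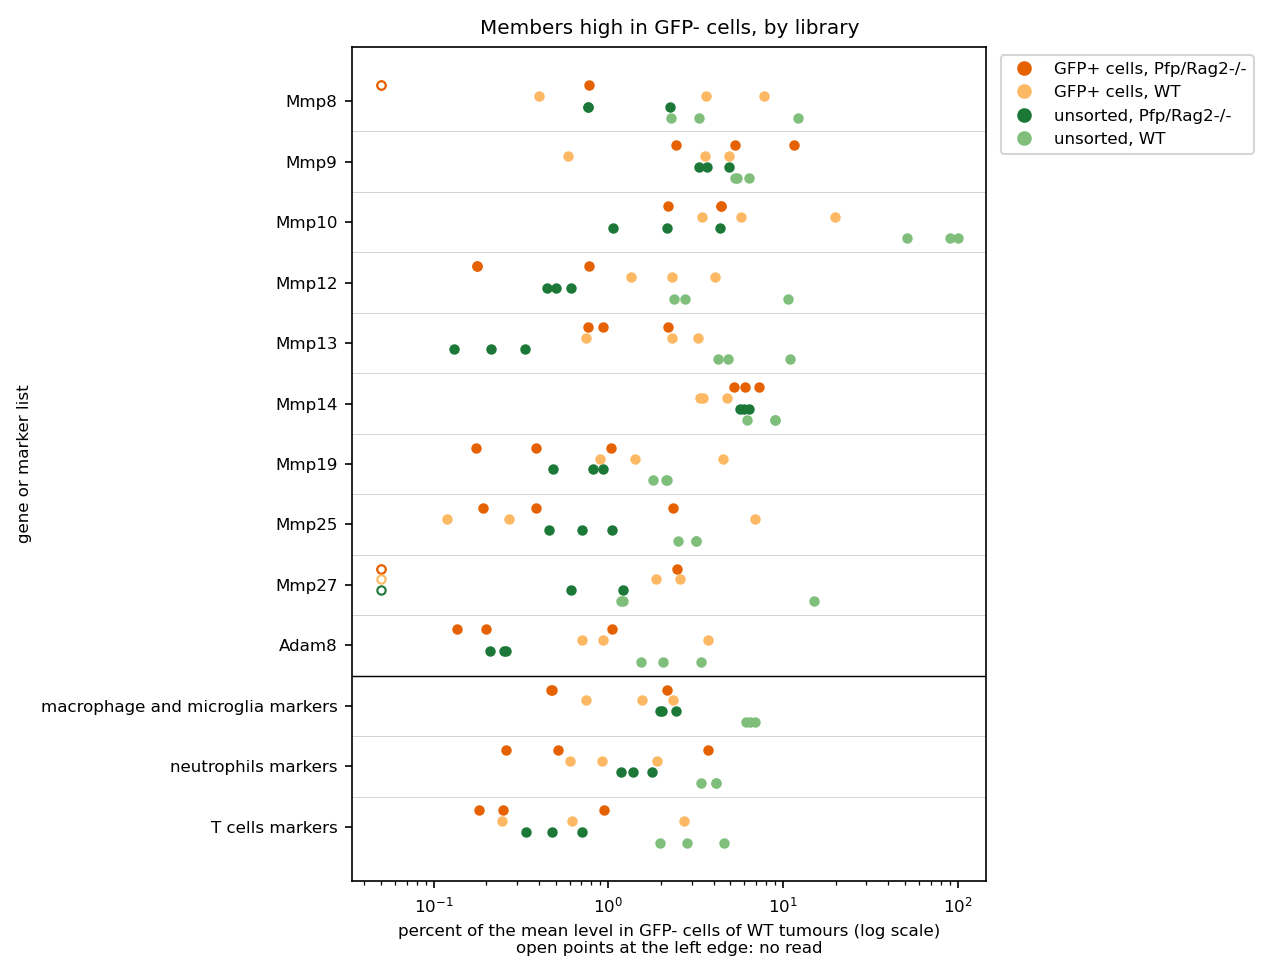
Level of 10 members and of 3 summed immune marker lists in each library of the 4 tumour groups, as a percent of the mean in GFP- cells (x axis, log scale); open points at the left edge are libraries with no read. In unsorted tumours Mmp13 lay between 0.132% and 0.334% in Pfp/Rag2-/- hosts and between 4.23% and 11% in WT hosts, and Mmp10 of the WT tumours reached 51.2% to 99.7%.

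Of the members higher in the unsorted Pfp/Rag2-/- tumours, Mmp16, Adamts5, Adamts17 and Mmp11 were higher in GFP+ than in GFP- cells of WT tumours. Mmp16, a transmembrane MMP, had 3268, 3740.2 and 3736 in Pfp/Rag2-/- tumours, against 1768, 2348 and 1844 in WT tumours, with no overlap (log2 difference 0.86, SE 0.12, adjusted p = 0.00277). Adamts5 had 473, 528 and 469.8 in Pfp/Rag2-/- tumours, against 229.7, 268 and 242 in WT tumours (log2 difference 0.99, SE 0.11, adjusted p = 0.00112). Adam23 averaged 680.1 ± 115 in Pfp/Rag2-/- tumours and 244 ± 72.4 in WT tumours (log2 difference 1.51, SE 0.24, adjusted p = 0.00415), and Adam18 averaged 51.3 ± 11.2 and 6.84 ± 3.44 in the same order (log2 difference 2.81, SE 0.39, adjusted p = 0.0026). Adamts14 and Adam33 were lower here as in sorted cells, with Adamts14 at 783, 842 and 793 in Pfp/Rag2-/- tumours, against 1535, 1628 and 1628 in WT tumours (log2 difference -0.99, SE 0.07, adjusted p = 0.000224). The Adam33 difference was -1.47 on the log2 scale (adjusted p = 0.00631). Adamts17 and Mmp11 were higher (log2 differences 1.08 and 0.96, adjusted p = 0.00562 and 0.0402), and the Mmp11 call held without WT library 1 and was lost without any other single library. Among ADAM sheddases Adam17 and Adam9 were lower (log2 differences -0.38 and -0.52, adjusted p = 0.0365 and 0.0433), and Adam10 did not pass, at 2418 ± 46.8 in Pfp/Rag2-/- tumours and 2442 ± 336 in WT tumours (adjusted p = 0.973).

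Adam22, Adam11 and Mmp24, which are known from neural cells, are set beside the neuron markers of the unsorted tumours here. Neuron markers stood at 7760.4%, 2252% and 1924% of their low GFP- mean in Pfp/Rag2-/- tumours and 1294%, 1219.9% and 1913% in WT tumours, and were highest in Pfp/Rag2-/- library 1. Adam22, a neural ADAM without protease activity, had 296, 105 and 116 in Pfp/Rag2-/- tumours, against 56.3, 54.9 and 116 in WT tumours, and was also highest in that library (adjusted p = 0.11). Adam11, of the same neural group, had 209.7, 114 and 97.4 in Pfp/Rag2-/- tumours, against 66.4, 38.7 and 61 in WT tumours (log2 difference 1.28, SE 0.34, adjusted p = 0.0286). Mmp24, a transmembrane MMP of neurons, had 67.5, 22.6 and 18.9 in Pfp/Rag2-/- tumours, against 8.3, 8.1 and 8.71 in WT tumours (log2 difference 1.77, SE 0.48, adjusted p = 0.0314). It shares 637 exonic bases with BC029722 on the other strand, which averaged 220.4 in Pfp/Rag2-/- tumours and 207 in WT tumours. Adam11 and Adam22 were also higher in GFP- than in WT GFP+ cells, with averages of 956 and 52.4 against 41.8 and 2.81. The neuron markers summed to 20.0 to 118 in the GFP- libraries, against 706 to 4493 in the unsorted tumours of both hosts. The part of neuronal or other non-tumour RNA in the Adam11 and Mmp24 differences was not tested. Without library 1 the log2 difference of Adam11 was 0.95 (adjusted p = 0.0638), and the Mmp24 call held.

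Mmp3 had 80.0, 109.6 and 55.9 in unsorted Pfp/Rag2-/- tumours, against 41.5, 18.9 and 26.1 in unsorted WT tumours, and the hosts did not overlap (log2 difference 1.49, SE 0.36, adjusted p = 0.0212). It was the 1 of 50 members whose unsorted WT libraries all lay above every GFP- and every WT GFP+ library, as 8.73% of 16795 genes did. GFP- cells held 2.94, 6.16 and 11.8 and WT GFP+ cells 0.958, 0.95 and 5.53. Its direction between hosts was the opposite of that of its chromosome neighbours Mmp12, Mmp10 and Mmp13 in the same tumours. The Mmp3 call was lost without Pfp/Rag2-/- library 1 or 2, or without WT library 2 or 3.

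Of the 4 TIMPs none passed between unsorted hosts in limma on these 2 groups, against 29.9% of all genes. An unadjusted p under 0.05 was found for 1 TIMP, edgeR called none and DESeq2 called Timp1 (adjusted p = 0.0128). In limma Timp1 also passed with all 18 libraries in 1 fit (adjusted p = 0.0298) and without WT library 1 (0.0313) or 2 (0.024). Timp2 passed with the replicate block (adjusted p = 0.0454), although the numbers do not pair these libraries. Timp1 had 1263, 1284 and 1400.2 in Pfp/Rag2-/- tumours, against 2847, 1514 and 1848 in WT tumours, where library 1 was the highest (log2 difference -0.60, SE 0.21, adjusted p = 0.0687). Timp2 had 1997, 1397 and 1352 in Pfp/Rag2-/- tumours and 1390.3, 854 and 1189 in WT tumours (log2 difference 0.47, SE 0.21, adjusted p = 0.135). Timp3 and Timp4 differed by 0.21 and -0.11 (adjusted p = 0.436 and 0.791), and both signs turned when WT library 1 was left out. Mmp2 averaged 2095 ± 184 in Pfp/Rag2-/- tumours and 2711 ± 481 in WT tumours (adjusted p = 0.0867), and Mmp9 averaged 25.5 ± 5.38 and 36.7 ± 3.68 in the same order (adjusted p = 0.154). Adamts1, again the highest ADAMTS gene, averaged 5004 ± 316 in Pfp/Rag2-/- tumours and 6497 ± 384 in WT tumours (log2 difference -0.38, SE 0.08, adjusted p = 0.0156). In WT hosts the sorted GFP+ libraries held 19007, 18805 and 11727 of it and the unsorted ones 6123, 6478 and 6890.3, with no overlap.

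Reck averaged 223 in Pfp/Rag2-/- tumours and 82.2 in WT tumours (log2 difference 1.45, SE 0.20, adjusted p = 0.00223). Rhbdf2, which carries Adam17 to the surface of immune cells, averaged 60.0 in Pfp/Rag2-/- tumours and 187 in WT tumours (log2 difference -1.64, SE 0.24, adjusted p = 0.00291). Both genes belong to a list of 18 regulators, of which 16 were tested, 5 rose and 3 fell, against 14.8% and 15.1% of all genes. Plau, the urokinase activator of plasminogen, averaged 212 in Pfp/Rag2-/- tumours and 414 in WT tumours (log2 difference -0.92, SE 0.22, adjusted p = 0.0204), and its receptor Plaur averaged 421 and 732 in the same order (log2 difference -0.78, SE 0.15, adjusted p = 0.00962). Bcan and the lectican Vcan, versican, rose (log2 differences 1.43 and 0.86, adjusted p = 0.00038 and 0.0063). The link protein gene Hapln2 rose by 2.24 (adjusted p = 0.00282), and no lectican or link protein fell among 7 tested. Fasl, a death ligand of T and natural killer cells that ADAMs release, averaged 2.4 in Pfp/Rag2-/- tumours and 19.3 in WT tumours (log2 difference -2.55, SE 0.42, adjusted p = 0.00494). It was the 1 of 7 shed ligands tested that fell, against 15.1% of all genes. Of the same 7, 2 rose, against 14.8% of all genes. These were Tgfa and Btc (log2 differences 0.56 and 1.41, adjusted p = 0.0129 and 0.0313). The median log2 differences were 0.06 for regulators, 0.86 for lecticans and link proteins, -0.13 for the plasminogen system, -0.33 for shed ligands and 0.47 for ADAMTS-like genes, of which 2 of 6 rose and none fell, beside 0.05 over all genes.

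The host effect was compared between sorted GFP+ cells and unsorted tumours by an interaction term over 12 libraries. The fit takes the libraries as independent, and the labels do not say whether sorted and unsorted libraries of a host came from the same mice. Mmp13 was the 1 of 49 members that passed, against 0.934% of all 16161 genes, with 0.223% in its direction. None passed as lower (0.712% of all genes), with 7 at an unadjusted p under 0.05 in limma, none called by edgeR and 4 called by DESeq2. Over all genes DESeq2 called 1216 of 12652 in either direction. The host effect of Mmp13 in GFP+ cells minus that in unsorted tumours was 4.19 on the log2 scale (SE 0.83, adjusted p = 0.0451). In Pfp/Rag2-/- hosts the sorted GFP+ cells held 331, 141 and 116 and the unsorted tumours 50.6, 19.9 and 32.5, in every library less than in any sorted one. In WT hosts the sorted GFP+ cells held 492, 113 and 349 and the unsorted tumours 1662, 729.6 and 641, in every library more than in any sorted one. The Mmp13 call was lost with no filter on low values (adjusted p = 0.0591), in edgeR (0.0605) and without both GFP+ libraries numbered 1 (0.114). It was lost without any 1 of 9 of the 12 libraries, with an adjusted p of up to 0.113, while the difference stayed between 3.56 and 4.62. The neighbouring values were those of Mmp10 (adjusted p = 0.0579) and Mmp14 (adjusted p = 0.0583). Without WT unsorted library 1 the interaction was called for 7 members instead of 1, while the calls over all 16161 genes went from 151 to 1105. None of the 41 pathway genes tested passed, with 10 at an unadjusted p under 0.05.

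**Figure D5:**
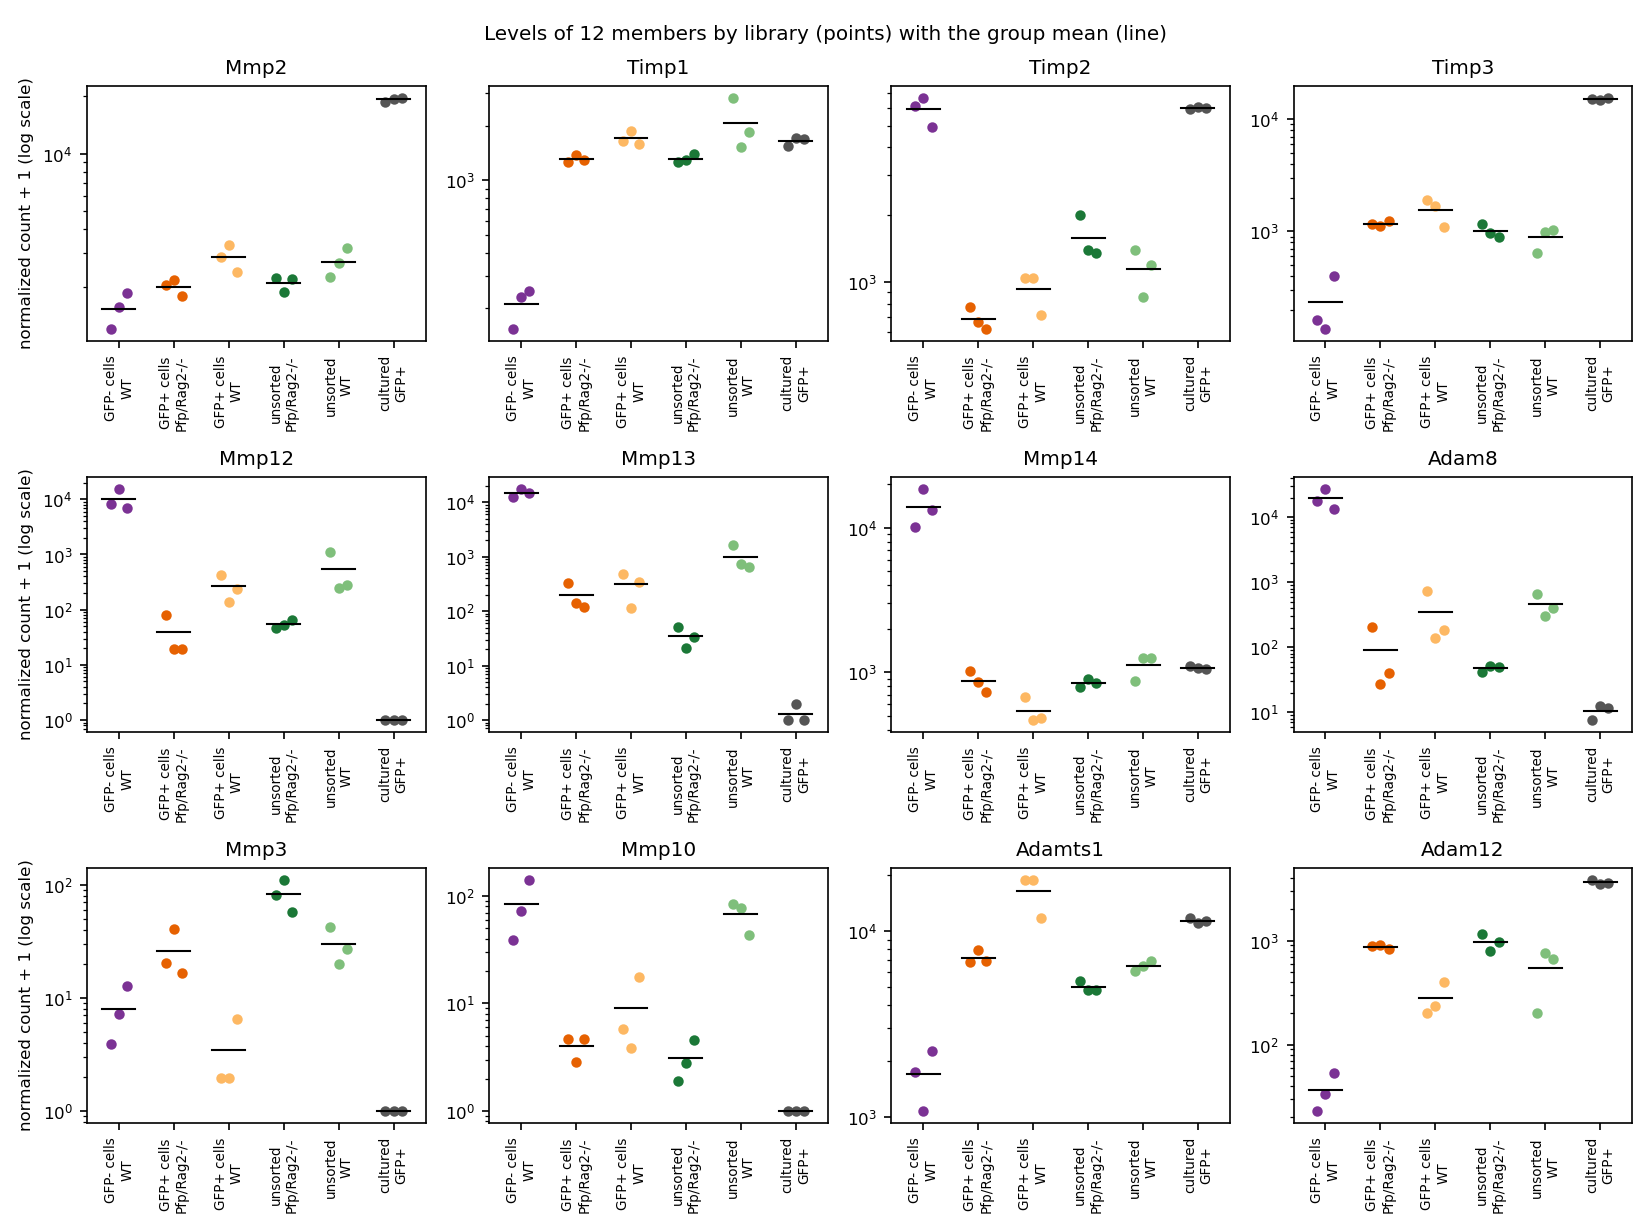
Normalized count + 1 (y axis, log scale) of 12 members in 6 groups (x axis), with a point per library and a line at the group mean. Mmp12, Mmp13, Mmp14 and Adam8 were highest in GFP- cells, Mmp2, Timp3 and Adam12 in culture, and Mmp3 in unsorted Pfp/Rag2-/- tumours (55.9 to 109.6 counts).

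GFP- cells of WT tumours had higher levels of Mmp13, Mmp12, Mmp14, Mmp19, Mmp25 and Adam8 RNA, and of the inhibitor Timp2, than GFP+ cells. GFP+ cells of the same tumours held more Mmp15, Mmp16, Mmp17 and Adamts1, with Timp1, Timp3 and Timp4. This comparison is of levels per library in the sorted fractions, and it does not show how the RNA of a whole tumour is split between them. Of 47 members tested 44 (93.6%) passed, against 76.4% of all 16083 genes, and in the same 44 the groups did not overlap (81.4% of all genes). They split into 24 higher (42.7% of all genes) and 20 lower (33.7% of all genes) in GFP- cells. The median log2 difference was 0.74, beside 0.19 over all genes, which TMM scaling moved by -0.24. By family 9 Mmp, 11 Adam, 3 Adamts and 1 Timp genes were higher, and 6 Mmp, 2 Adam, 9 Adamts and 3 Timp genes were lower. TMM scaling took away 1 of the 44 calls, that of Adam33, and turned no direction among them. Without each single library in turn 41 calls held, and those of Adam33, Adamts2 and Adamts12 did not.

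The collagenases, the elastase and the leukocyte proteases were on the GFP- side. Mmp13 had 12724, 17957 and 14784 normalized counts in GFP- cells, against 492, 113 and 349 in WT GFP+ cells, and was the highest member per kilobase there, at 5669.5 ± 986 (log2 difference 5.80, SE 0.52, adjusted p = 0.000136). Mmp12 had 8358, 15652 and 6991 in GFP- cells, against 419, 139 and 240.4 in WT GFP+ cells (log2 difference 5.33, SE 0.46, adjusted p = 0.00012). Adam8 had 17802, 27519 and 13132 in GFP- cells, against 724, 138 and 181 in WT GFP+ cells (log2 difference 6.14, SE 0.63, adjusted p = 0.000224). None of these groups overlapped, and GFP- library 2 was the highest of its group for all 3 genes. Mmp14 had 10149, 18618 and 13216 in GFP- cells, against 671, 467 and 485 in WT GFP+ cells (log2 difference 4.66, SE 0.25, adjusted p = 3.04e-05). Mmp19 averaged 5233 ± 3574 in GFP- cells and 119.5 ± 103 in WT GFP+ cells (log2 difference 5.51, SE 0.76, adjusted p = 0.000694), and Mmp25 averaged 2390.5 ± 1301 and 58.3 ± 93 in the same order (log2 difference 6.97, SE 1.39, adjusted p = 0.00359). Mmp9 had 949, 723 and 259 in GFP- cells, against 31.6, 3.8 and 23 in WT GFP+ cells (log2 difference 5.18, SE 0.83, adjusted p = 0.00134). Mmp8, the neutrophil collagenase, averaged 236 ± 90.5 in GFP- cells and 9.33 ± 8.76 in WT GFP+ cells (log2 difference 4.98, SE 0.85, adjusted p = 0.00174). Mmp27 averaged 148 ± 13.6 in GFP- cells and 2.2 ± 1.98 in WT GFP+ cells (log2 difference 5.82, SE 0.61, adjusted p = 0.000241).

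Not all of these genes followed the immune markers over the WT GFP+ libraries. Mmp12 stood at 4.06%, 1.34% and 2.33% of its GFP- mean in the 3 WT GFP+ libraries, Mmp25 at 6.93%, 0.119% and 0.27% and Adam8 at 3.72%, 0.707% and 0.931%. The macrophage markers stood at 2.35%, 0.74% and 1.56% and the natural killer markers at 3.92%, 0.247% and 0.462%. Library 1 was the highest of the 3 for each of these. Mmp19 stood at 4.54%, 1.42% and 0.897%, lowest in library 3, and Mmp8 at 3.65%, 0.402% and 7.79%, highest in library 3. The part of carried-over RNA in the GFP+ levels of these genes was not tested.

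Of the ADAMs known as active proteases, Adam8, Adam9, Adam10, Adam15, Adam17, Adam19 and Adam33 were higher in GFP- cells and Adam12 was lower. Adam10, which cuts Notch and cadherins, had 4248, 5310.3 and 5735 in GFP- cells, against 1543, 1673 and 1852 in WT GFP+ cells (log2 difference 1.59, SE 0.14, adjusted p = 0.000114). Adam17, which releases TNF and EGF receptor ligands, had 6174, 7801 and 5618 in GFP- cells, against 1650.1, 1539 and 1624 in WT GFP+ cells (log2 difference 2.01, SE 0.13, adjusted p = 4.93e-05). In both the lowest GFP- value was over all GFP+ values. Adam19 and Adam15 averaged 4910.3 and 2548 in GFP- cells, against 728 and 1069 in WT GFP+ cells (log2 differences 2.74 and 1.23, adjusted p = 5.15e-05 and 0.000508). Adam11 averaged 956 ± 212 in GFP- cells and 41.8 ± 16 in WT GFP+ cells (log2 difference 4.53, SE 0.34, adjusted p = 7.69e-05). Adam12 averaged 35.7 ± 15.5 in GFP- cells and 278 ± 106 in WT GFP+ cells (log2 difference -2.95, SE 0.41, adjusted p = 0.000711). Adam3 and Adam28 had at most 3 reads over the WT GFP+ libraries, so their ratios were 71.6 (95% counting interval 12.2 to 2887) and 22.3 (7.16 to 112).

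Of the other membrane-type MMPs, Mmp15, Mmp16 and Mmp17 were higher in GFP+ tumour cells. Mmp15 had 156, 129 and 782 in GFP- cells, against 5624, 5273 and 7615 in WT GFP+ cells (log2 difference -4.59, SE 0.66, adjusted p = 0.000848). Mmp16 had 39.7, 29.3 and 285 in GFP- cells, against 2167, 2347 and 2924 in WT GFP+ cells (log2 difference -5.12, SE 0.81, adjusted p = 0.00128). Mmp17 had 51.5, 63.2 and 287 in GFP- cells, against 2357, 2367 and 2989 in WT GFP+ cells (log2 difference -4.69, SE 0.62, adjusted p = 0.000603). In all 3 genes GFP- library 3 held the most, which also had the highest summed pericyte and fibroblast, astrocyte and neuron markers of the GFP- libraries. The summed pericyte and fibroblast and neuron lists stood at 362% to 429% and 545% to 862% of the GFP- mean in WT GFP+ cells. The median marker of these lists stood lower there, at 9.16%, 8.97% and 23.2% for pericytes and fibroblasts. For neurons it was 64.1%, 33.1% and 200%. The part of tumour cell RNA in GFP- library 3 was not tested. Mmp2 averaged 1531 ± 325 in GFP- cells and 2854 ± 448 in WT GFP+ cells, the smallest difference among the MMPs that passed (log2 difference -0.91, SE 0.19, adjusted p = 0.00428). Mmp28, also called epilysin, averaged 33.6 ± 25.7 in GFP- cells and 244 ± 19.1 in WT GFP+ cells (log2 difference -3.07, SE 0.50, adjusted p = 0.00141).

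Nearly all ADAMTS genes that cut proteoglycans were on the tumour cell side, with 5 of 6 lower in GFP- cells, against 33.7% of all genes. Adamts1 had 1732, 1071 and 2265 in GFP- cells, against 19007, 18805 and 11727 in WT GFP+ cells, without overlap (log2 difference -3.32, SE 0.31, adjusted p = 0.000165). Adamts5 averaged 14 ± 7.31 in GFP- cells and 243 ± 7.91 in WT GFP+ cells (log2 difference -4.13, SE 0.37, adjusted p = 0.000135), and Adamts20 averaged 24.3 ± 21.6 and 569 ± 57.4 in the same order (log2 difference -4.86, SE 0.62, adjusted p = 0.000501). Adamts8 was the exception, with 27 ± 13.5 in GFP- cells and 2.5 ± 1.03 in WT GFP+ cells (log2 difference 2.92, SE 0.47, adjusted p = 0.00135). Adamts10, which is linked to fibrillin fibres, had 2189.5, 1798 and 1931 in GFP- cells, against 332, 278 and 319 in WT GFP+ cells (log2 difference 2.67, SE 0.12, adjusted p = 2.33e-05). The lecticans that these enzymes cut lay on the same side as most of them. Of 7 lecticans and link proteins tested 6 were lower in GFP- cells, against 33.7% of all genes, and Hapln2 was higher. Among the lower ones was Bcan, at 279 in GFP- cells and 3076 in WT GFP+ cells (log2 difference -3.67, SE 0.49, adjusted p = 0.000611).

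The inhibitors were divided between both sides. Timp2 had 6127, 6666 and 4932 in GFP- cells, against 1046, 1048 and 711 in WT GFP+ cells, and was the 1 TIMP higher in GFP- cells (log2 difference 2.67, SE 0.19, adjusted p = 6.38e-05). Timp1 had 152, 228 and 247 in GFP- cells, against 1650.1, 1864 and 1577 in WT GFP+ cells (log2 difference -3.04, SE 0.20, adjusted p = 5.18e-05). Timp3 had 162, 134 and 404 in GFP- cells, against 1887, 1676 and 1090.3 in WT GFP+ cells (log2 difference -2.87, SE 0.44, adjusted p = 0.00109). Neither pair of groups overlapped, and GFP- library 3 was the highest of its group for both. Timp3 shares 1733 exonic bases with Syn3 on the other strand, and Syn3 averaged 31 in GFP- cells and 49.4 in WT GFP+ cells. Timp4 averaged 20.6 ± 17.6 in GFP- cells and 255 ± 5.64 in WT GFP+ cells (log2 difference -3.99, SE 0.68, adjusted p = 0.00181).

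Plau averaged 8197 in GFP- cells and 176 in WT GFP+ cells (log2 difference 5.66, SE 0.38, adjusted p = 5.43e-05), and Plaur averaged 18090.0 and 1023 in the same order (log2 difference 4.12, SE 0.39, adjusted p = 0.000165). Furin, which cuts the propeptide of membrane-type MMPs and ADAMs, averaged 15340.0 in GFP- cells and 1265 in WT GFP+ cells (log2 difference 3.57, SE 0.25, adjusted p = 5.99e-05). The pair of rhomboid-like genes that carry Adam17 went apart. Rhbdf2 averaged 5167 in GFP- cells and 137 in WT GFP+ cells (log2 difference 5.31, SE 0.41, adjusted p = 7.91e-05), and Rhbdf1 averaged 279.6 and 2983 in the same order (log2 difference -3.52, SE 0.36, adjusted p = 0.000216). Tnf, the cytokine that Adam17 is named for, averaged 5856 in GFP- cells and 92 in WT GFP+ cells (log2 difference 6.25, SE 0.61, adjusted p = 0.000186). Over the lists, 4 of 6 plasminogen genes, 10 of 14 regulators and 4 of 6 shed ligands were higher, against 42.7% of all genes, and 1, 3 and 1 were lower, against 33.7%, with median log2 differences of 2.94, 1.94 and 5.89, beside 0.19 over all genes. The medians were -2.81 for lecticans and link proteins and -2.63 for 4 ADAMTS-like genes, of which 3 were lower.

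GL261 cells taken from tumours differed from the same line in culture in most members, and Adamts12, Timp3, Mmp2, Timp2 and Adam12 were the 5 members with the largest falls in either host. In GFP+ cells of Pfp/Rag2-/- hosts 38 of 42 members tested (90.5%) passed against culture, beside 72.2% of all 14487 genes, with 15 higher (35.1% of all genes) and 23 lower (37.1% of all genes). In 38 of the 42 the groups did not overlap (76.8% of all genes). In GFP+ cells of WT hosts 32 of 37 (86.5%) passed, beside 65.6% of all 14261 genes, with 9 higher (30.3% of all genes) and 23 lower (35.3% of all genes). In 31 of the 37 the groups did not overlap (71.9% of all genes). The median log2 differences were -0.48 in Pfp/Rag2-/- hosts and -0.71 in WT hosts, beside -0.01 and -0.04 over all genes. Without each single library in turn 34 calls held in Pfp/Rag2-/- hosts, all but Adamts5, Mmp14, Mmp19 and Mmp23, and 29 in WT hosts, all but Adamts1, Adamts5 and Adamts14. With all 18 libraries in 1 fit 10 calls were lost in Pfp/Rag2-/- hosts (Timp1, Mmp11, Mmp14, Mmp16, Mmp23, Adam11, Adam23, Adamts5, Adamts17 and Adamts20) and 8 in WT hosts (Timp4, Mmp15, Mmp16, Adamts1, Adamts5, Adamts9, Adamts14 and Adamts20). Both comparisons share the cultured libraries, so their likeness is no separate result.

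Timp3 had 1152, 1114 and 1226 in Pfp/Rag2-/- GFP+ cells, beside 1887, 1676 and 1090.3 in WT GFP+ cells, against 15117, 14803 and 15595 in culture. The log2 differences were -3.70 for Pfp/Rag2-/- hosts (adjusted p = 2.66e-10) and -3.33 for WT hosts (adjusted p = 9.94e-07). Timp2 had 773, 661 and 617 in Pfp/Rag2-/- GFP+ cells, beside 1046, 1048 and 711 in WT GFP+ cells, against 5903, 6019.9 and 5967 in culture. It fell by 3.13 on the log2 scale in Pfp/Rag2-/- hosts and by 2.69 in WT hosts (adjusted p = 3.98e-09 and 8.69e-07). Timp4 fell in both (log2 differences -1.58 and -0.98). Timp1 behaved differently, at 1263, 1371 and 1289 in Pfp/Rag2-/- GFP+ cells, beside 1650.1, 1864 and 1577 in WT GFP+ cells, against 1534, 1705 and 1679 in culture. It was lower than culture in Pfp/Rag2-/- hosts (log2 difference -0.33, SE 0.06, adjusted p = 0.000645, but 0.166 with all 18 libraries in 1 fit) and overlapped with culture in WT hosts (log2 difference 0.05, SE 0.07, adjusted p = 0.59).

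Mmp2 had 2036, 2176 and 1784 in Pfp/Rag2-/- GFP+ cells, beside 2866, 3295 and 2399.8 in WT GFP+ cells, against 18675, 19474 and 19730.3 in culture, where it was the highest member per kilobase (5723 ± 163). The log2 differences were -3.27 and -2.77 for the hosts in that order (adjusted p = 2.21e-09 and 1.71e-07). The highest tumour library lay far below the lowest cultured one. Mmp17 averaged 3570.2 ± 79.9 in Pfp/Rag2-/- GFP+ cells, 2571 ± 362 in WT GFP+ cells and 7441 ± 304 in culture. Mmp14 was lower than in culture in Pfp/Rag2-/- hosts (log2 difference -0.33, SE 0.10, adjusted p = 0.0199) and in WT hosts (log2 difference -1.01, SE 0.13, adjusted p = 0.000159). Mmp15 passed in WT hosts (log2 difference -0.71, SE 0.12, adjusted p = 0.000901) and not in Pfp/Rag2-/- hosts (log2 difference -0.02, adjusted p = 0.774). Mmp16 was higher than in culture in both (log2 differences 0.84 in Pfp/Rag2-/- hosts and 0.58 in WT hosts).

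Adam12 had 892, 916 and 821 in Pfp/Rag2-/- GFP+ cells, beside 202, 234 and 399.7 in WT GFP+ cells, against 3853, 3496 and 3584 in culture. The 3 groups did not overlap, with culture highest and WT hosts lowest (log2 differences -2.06 in Pfp/Rag2-/- hosts and -3.77 in WT hosts, adjusted p = 8.31e-09 and 1.72e-06). Adam23 took the same order, with averages of 431 ± 57.5 in Pfp/Rag2-/- GFP+ cells, 151 ± 13.8 in WT GFP+ cells and 587 ± 36 in culture. Adam19 averaged 740.1 ± 27.1 in Pfp/Rag2-/- GFP+ cells, 728 ± 113 in WT GFP+ cells and 2815 ± 267 in culture. Adam17 averaged 1509.7 ± 100.4, 1605 ± 58.1 and 3641 ± 101, and Adam10 averaged 1944 ± 60.2, 1689 ± 155 and 3036 ± 53.6, in the same order of groups. All 3 were below culture in each host (adjusted p of at most 1.21e-05).

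Adamts12, which cuts cartilage oligomeric matrix protein, had 128, 147 and 142 in Pfp/Rag2-/- GFP+ cells, beside 108, 106 and 94.9 in WT GFP+ cells, against 1799, 1968 and 1916 in culture. The log2 differences were -3.76 in Pfp/Rag2-/- hosts and -4.19 in WT hosts (adjusted p = 1.48e-09 and 1.08e-08). Adamts4 averaged 569 ± 40.8 in Pfp/Rag2-/- GFP+ cells, 526 ± 61.7 in WT GFP+ cells and 2022 ± 56.5 in culture. Adamts1 had its culture level of 11362 ± 358 between both hosts, lower in Pfp/Rag2-/- GFP+ cells (log2 difference -0.66, SE 0.06, adjusted p = 1.03e-05) and higher in WT GFP+ cells (log2 difference 0.51, SE 0.16, adjusted p = 0.0247), where the groups overlapped. The call in WT hosts was lost without WT library 1 or 2 or any 1 cultured library. Adamts6 was higher than in culture in both, with 283, 297 and 286 in Pfp/Rag2-/- GFP+ cells, beside 359, 308 and 346 in WT GFP+ cells, against 120.0, 87.7 and 95.4 in culture. Adamts14 fell below culture by 1.62 in Pfp/Rag2-/- hosts and by 0.28 in WT hosts on the log2 scale, and the WT call was lost in edgeR and DESeq2.

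Some members that were higher in GFP- than in WT GFP+ cells, Mmp12, Mmp13, Mmp25 and Adam8, had few or no reads in culture. Others were abundant there, with Timp2 at 101% of its GFP- mean, Adam9 at 70.9%, Adam10 at 59.5%, Adam19 at 57.3% and Adam17 at 55.7%, while Mmp14 stood at 7.71%. Mmp12 had no read in the 3 cultured libraries, so its level was at least 13.7-fold higher in Pfp/Rag2-/- GFP+ cells and at least 93.7-fold higher in WT GFP+ cells, taking a floor of 3 reads per library. Mmp25, also without a read in culture, was at least 8.15-fold and 20.5-fold higher in the same order, with most of its reads in library 1 of either host. Mmp13 had 1 read in culture, which gave ratios of 622 (95% counting interval 111 to 24605) in Pfp/Rag2-/- GFP+ cells and 1007 (180.4 to 39823) in WT GFP+ cells. Adam8 had 6.61, 11.3 and 10.5 in culture, below all tumour libraries of either host (log2 differences 2.57 in Pfp/Rag2-/- hosts and 4.69 in WT hosts). Mmp3 and Adam18 had no read in culture and were at least 8.72-fold and 17.7-fold higher in Pfp/Rag2-/- GFP+ cells. Adam2, a sperm ADAM, had 1 read in culture and ratios of 109 (19.1 to 4324) in Pfp/Rag2-/- GFP+ cells and 78.6 (13.7 to 3145) in WT GFP+ cells. Macrophage markers of the cultured cells were at most 0.015% of the GFP- mean. They stood at 0.472% to 2.18% in Pfp/Rag2-/- GFP+ libraries and 0.74% to 2.35% in WT GFP+ libraries. In the same order of hosts Mmp12 averaged 0.378% and 2.58% of its GFP- mean, and Mmp13 1.29% and 2.1%. Mmp25 averaged 0.969% and 2.44%, and Adam8 0.462% and 1.78%. The part of macrophage RNA in the rises of these genes over culture was not tested.

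Among the other matrix genes Papln, an ADAMTS-like gene, averaged 162 in Pfp/Rag2-/- GFP+ cells and 119.7 in WT GFP+ cells, against 3510.0 in culture (log2 differences -4.46 and -4.88, adjusted p = 2.69e-08 and 4.67e-08). Adamtsl2, which regulates latent TGF-beta in the matrix, went the other way, with 179 in Pfp/Rag2-/- GFP+ cells and 132 in WT GFP+ cells, against 4.42 in culture. Vcan averaged 2404 in Pfp/Rag2-/- GFP+ cells and 2005 in WT GFP+ cells, against 450.4 in culture (log2 differences 2.41 and 2.15). The link protein gene Hapln1 rose by 4.70 in Pfp/Rag2-/- hosts and 4.30 in WT hosts. Reck averaged 176 in Pfp/Rag2-/- GFP+ cells and 96.7 in WT GFP+ cells, against 322 in culture, and was lower in both hosts (adjusted p = 0.000273 and 1.63e-05). Of 12 regulators tested in Pfp/Rag2-/- hosts 8 were lower and 3 higher, and of 11 tested in WT hosts 8 were lower and 2 higher. Over all genes 37.1% were lower and 35.1% higher in Pfp/Rag2-/- hosts, and 35.3% were lower and 30.3% higher in WT hosts. Their median log2 differences were -0.51 and -0.36, beside 2.41 and 1.42 for lecticans and link proteins, of which 5 of 7 and 4 of 6 rose, and -0.01 and -0.04 over all genes.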

How the data were processed

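RNA-seq of 18 libraries (6 groups of 3) was analysed from 1 deposited table of normalized counts for 48795 genes, a signal made by the authors by dividing the reads of each gene by 1 size factor per library. STAR 2.5.2b, DESeq2 and the build GRCm38 are named in the submitters' processing notes; how reads were counted, on which strand and with which annotation is not given in the sources used here. Groups were taken from the labels, and gene types, lengths and overlaps from GENCODE M21. All values of a library were whole multiples of 1 step within 0.05 of a read, which gave the reads and totals of 19172814 to 21141662 per library, and counting intervals and floors cover counting error only. The members and gene lists were chosen with earlier results of these data known, and counts over the members tested are a description.

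Each comparison was fitted with limma 3.58.1 (R 4.3.3) on log2(normalized count + 1) for genes that reached 10 in 3 or more of the fitted libraries, with the 2 groups alone and no covariate, or 12 libraries with an interaction term. Tests were two-sided, adjusted by Benjamini-Hochberg over all genes tested, and called at an adjusted p under 0.05; a log2 difference on this scale understates the change of low genes. Raw counts had been foreseen as a possibility, and the signal was tested on the log scale instead, with edgeR 4.0.16 and DESeq2 1.42.0 on the recovered reads as alternatives. The other alternatives were a pseudocount of 10, no filter, a filter at 50, TMM scaling, 1 fit of all libraries, the replicate number as a block and each library left out. The fit was also run on simulated data, in which all genes had the same dispersion setting.

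Replicate numbers come from the labels. Deviations from the group means of same-numbered GFP+ libraries of both hosts correlated across genes at 0.616, 0.483 and 0.102. For number 3 a library of another number correlated better (0.443), and the hosts are different mice. The block fit is therefore an alternative only. In the other comparisons the correlation was not above 0.1 for every pair. For WT GFP- and GFP+ libraries it was 0.212, 0.068 and 0.32. The labels do not say whether these came from the same tumours, and the fit takes them as independent.

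Members were named by a rule: up to 8 per direction with the largest differences among those called, not overlapping and reaching a mean of 50 in one of the groups, plus the TIMPs, Mmp2, Mmp9, Mmp14, Adam10 and Adam17, and up to 3 called genes per pathway list. Other members stand for their role class, and Reck, Furin, Rhbdf1 and Vcan were in part chosen after their values were seen. Promoter windows are from RefSeq (GRCm38.p6). Figures were drawn with matplotlib 3.10.9.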

Additional observations from a re-analysis of the deposited data

Results flagged for a closer look

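Mmp13 was the 1 member whose host difference differed between sorted GFP+ cells and unsorted tumours by a test of the difference itself, the interaction term in limma over 12 libraries. The log2 difference was -0.61 in GFP+ cells and -4.80 in unsorted tumours, and the interaction was 4.19 (adjusted p = 0.0451). All 3 unsorted Pfp/Rag2-/- tumours lay below all 3 sorted Pfp/Rag2-/- samples, and all 3 unsorted WT tumours lay above all 3 sorted WT samples. Over the alternatives of this value its adjusted p was between 0.000499 and 0.114.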

How the results depend on the processing

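Of 184 recomputed member counts 156 stayed within 1.5 times the reported count. Single members were recomputed 1774 times, of which 1667 kept direction and side of the threshold, 79 lost the call, 20 gained one and 8 turned direction. With all 18 libraries in 1 fit, 7 members were higher in GFP+ cells of Pfp/Rag2-/- hosts than of WT hosts, 6 were higher in the unsorted comparison and 14 in WT GFP+ cells against culture. Without a filter 19 were higher in WT GFP+ cells against culture, where more members were tested, and with a filter at 50 there were 6 in Pfp/Rag2-/- GFP+ cells, where fewer were. For the interaction, 2 members were higher with a pseudocount of 10, with a filter at 50 and in DESeq2. Without a filter, in edgeR and without both GFP+ libraries numbered 1 there were 0. In DESeq2 4 were lower, beside 1216 of 12652 genes called in either direction. Where not named, the cause was not tested.

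Leaving out 1 library at a time, between 5 and 11 members were higher in unsorted Pfp/Rag2-/- tumours. In the interaction between 0 and 7 were higher and between 0 and 2 lower, while between 0 and 1105 of all 16161 genes were called. Directions that turned belonged to differences that had not passed: Timp3 between unsorted hosts (-0.002 to 0.33), Timp4 (-0.35 to 0.13), Adam10 (-0.1 to 0.1, and 0.01 under TMM scaling), Timp1 in WT GFP+ cells against culture (-0.02 to 0.1) and Timp1 in the interaction (-0.03 to 0.43).

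With the replicate number as a block the GFP+ host comparison called 14 members higher and 11 lower, and the changed calls are given there. In the unsorted comparison, where the numbers do not pair the libraries, the block called 11 higher and 10 lower and lost Mmp11, Mmp24 and Adam9. It changed no member count by more than 1.5 times.

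Members at a few reads per library, such as Mmp3 and Adam18 in WT GFP+ cells, are limited by depth, since 3 reads there are worth about 2.83 normalized counts. Each group rests on 3 libraries.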
